A study of Mus musculus with 4 samples.

Results

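The S/S and A/A livers were compared after TNF, the inflammatory cytokine, in 1 library of each genotype. Single-cell RNA was measured in liver cells from mice that were 2 months old. Each mouse of the A/A TNF group and of the S/S TNF group had received 500 ng of TNF into the peritoneal cavity 3 h before the cells were collected. The A/A and S/S baseline groups had no TNF. What A and S stand for is not given in the sources used here. Each library pooled the cells of 2 mice, so no group has a replicate and no difference was tested. A barcode counted as a cell when it held 300 genes or more and when mitochondrial transcripts were 20% or less of its total. The filter passed 6452 A/A cells and 5528 S/S cells after TNF, 11980 of the 19176 cells in all 4 libraries. Cell types were assigned by gates on fixed marker genes and are called by the type with the ending -like. All ratios below are S/S over A/A, and brackets hold 95% intervals for counting error, which say nothing of how mice or preparations vary.

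Liver tissue is built of hepatocytes, sinusoidal endothelial cells and resident Kupffer macrophages, with blood leukocytes passing through. TNF acts on most of these cells through receptors that activate NF-kB, and it draws neutrophils and monocytes into the sinusoids. Cells short of oxygen stabilise HIF transcription factors, which bind a core DNA motif, ACGTG, near genes of glucose uptake, glycolysis, mitochondrial turnover and blood vessel growth. Because both the oxygen response and the response to interferons can be read in nearly every cell type, each gene was followed across all types side by side.

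The sequences upstream of 4 genes are shown because their transcripts were higher in S/S in many cell types at once. Egln3 encodes an oxygen-sensing prolyl hydroxylase that marks HIF proteins for destruction, Hilpda encodes a lipid droplet protein, Bnip3 encodes a mitophagy receptor and Tpi1 encodes the glycolytic enzyme triosephosphate isomerase. The windows are the 250 bases before the gene start from RefSeq in build GRCm38.p6, at chr12:54203875-54204124 on the minus strand for Egln3, chr6:29272376-29272625 on the plus strand for Hilpda (the second of 2 starts in the table), chr7:138909507-138909756 on the minus strand for Bnip3 and chr6:124814159-124814408 on the minus strand for Tpi1. Each is written 5′ to 3′ on the strand of the gene, and capitals mark ACGTG read on either strand.
Egln3: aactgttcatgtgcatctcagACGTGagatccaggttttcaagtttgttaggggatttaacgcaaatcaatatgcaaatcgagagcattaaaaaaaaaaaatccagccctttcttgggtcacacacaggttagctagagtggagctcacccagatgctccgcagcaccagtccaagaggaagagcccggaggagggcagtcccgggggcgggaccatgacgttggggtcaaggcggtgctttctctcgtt
Hilpda: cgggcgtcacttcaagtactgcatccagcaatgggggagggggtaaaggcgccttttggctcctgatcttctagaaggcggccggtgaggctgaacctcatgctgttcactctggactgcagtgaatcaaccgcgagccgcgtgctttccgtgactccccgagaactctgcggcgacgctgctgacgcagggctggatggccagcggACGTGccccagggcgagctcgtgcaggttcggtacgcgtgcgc
Bnip3: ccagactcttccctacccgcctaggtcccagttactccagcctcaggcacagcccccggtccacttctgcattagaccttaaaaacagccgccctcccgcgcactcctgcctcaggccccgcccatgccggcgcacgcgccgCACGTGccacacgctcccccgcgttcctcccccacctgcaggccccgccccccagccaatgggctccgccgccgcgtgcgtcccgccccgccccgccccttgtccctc
Tpi1: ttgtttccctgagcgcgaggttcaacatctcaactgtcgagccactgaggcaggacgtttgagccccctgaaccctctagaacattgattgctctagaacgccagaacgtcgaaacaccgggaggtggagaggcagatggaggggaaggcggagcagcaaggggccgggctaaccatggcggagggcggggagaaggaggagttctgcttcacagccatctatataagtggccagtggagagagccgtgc
The Egln3 and Hilpda windows each held 1 match. The Bnip3 window held the palindrome CACGTG, which counts as 2 overlapping matches, 1 on each strand, and the Tpi1 window held none. Over all genes of the table, 4998 of 27025 (18.5%) had at least 1 match on either strand in the window of any of their starts. Of the hypoxia response genes with a window, 14 of 21 (66.7%) held the motif, against 10 of 20 glycolysis genes (50%) and 2 of 31 interferon-stimulated genes (6.45%). The hypoxia response genes were chosen as named targets of the HIF pathway, so their share of motifs follows in part from that choice. A match is a string of letters and is not evidence of binding.

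After TNF the A/A cells held 53463285 UMIs (unique transcript molecules) and the S/S cells 53969689, with medians of 5866 and 6504.5 UMIs and of 1500.5 and 1401.5 genes per cell. Of the cell barcodes, 7 occurred in both TNF libraries. In each of the 11 types whose genes are compared below, all or all but 1 of its own markers were at least 2-fold higher than in the other kept cells of the library, and none was at 0. In S/S cDC2-like cells 6 of 8 were. Barcodes that passed the gates of more than 1 lineage, 484 in A/A and 382 in S/S, were left out of the types, and no doublet caller was used. The C1q macrophage-like gate stood apart in depth, with a median of 2013 UMIs in its 77 A/A cells and 11085.5 in its 298 S/S cells. A single A/A barcode held 12.4% of that gate's UMIs, and summed mature DC markers in the gate were 1583 CPM in A/A and 331 in S/S. Their part in the results of this type was not tested, and the hypoxia result is given again without it.

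Red cell precursors, mononuclear phagocytes and lymphocytes took different shares of the 2 livers. Erythroid-like cells, led in S/S by the globin genes and by Car2, the carbonic anhydrase of red cells, made up 0.620% of the A/A cells (40 cells) and 11.8% of the S/S cells (650 cells), a ratio of 19.0 [13.8, 26.8]. Monocytes and macrophages other than Kupffer cells were also a larger share in S/S. The share of C1q macrophage-like cells was 1.19% in A/A and 5.39% in S/S, a ratio of 4.52 [3.51, 5.88]. Classical monocyte-like cells, the inflammatory blood monocytes, were 5.30% and 10.1%, a ratio of 1.91 [1.66, 2.19]. Nonclassical monocyte-like cells, which patrol vessel walls, were 0.496% (32 cells) and 2.13% (118 cells), a ratio of 4.30 [2.89, 6.58]. The dendritic subsets cDC1-like, cDC2-like and mature DC-like each stood near a 2-fold larger share in S/S, with ratios of 1.88, 2.04 and 2.07.

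T cell-like, endothelial-like and Kupffer-like shares were smaller in S/S. T cell-like cells were 953 in A/A and 275 in S/S, which is 14.8% against 4.97% of the library and a ratio of 0.337 [0.293, 0.386]. Endothelial-like cells were 18.1% in A/A and 9.84% in S/S, a ratio of 0.545 [0.491, 0.604]. Kupffer-like cells were 5.46% and 3.44%, a ratio of 0.630 [0.525, 0.754]. Among the other lymphoid cells, NK or ILC1-like cells had a ratio of 0.691 [0.515, 0.923], B cell-like cells 0.835 [0.676, 1.03] and plasma cell-like cells 0.553 [0.336, 0.889]. Neutrophil-like cells were the largest group in both libraries, at 21.5% and 19.0% with a ratio of 0.884 [0.815, 0.959]. Hepatocyte-like barcodes were 6.66% and 7.60%, and their ratio of 1.14 [0.994, 1.31] has an interval that includes 1. With immune cells alone as the denominator, the T cell-like ratio was 0.357, the C1q macrophage-like ratio 4.79 and the Kupffer-like ratio 0.668.

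A low-speed spin against hepatocytes, a density step against dead cells and a flow sort that enriched macrophages came before every library, so shares are shares of barcodes after sorting, and yield and make-up of the liver cannot be told apart. The baseline pair of libraries went the same way for erythroid-like cells (ratio 13.7), classical monocyte-like cells (3.77), Kupffer-like cells (0.517) and endothelial-like cells (0.0735). It lay on the other side of 1 for T cell-like (1.20), NK or ILC1-like (1.51), B cell-like (1.41), plasma cell-like (1.17), hepatocyte-like (0.404), cDC1-like (0.774), mature DC-like (0.409) and nonclassical monocyte-like cells (0.292). The baseline intervals of plasma cell-like and cDC1-like cells include 1. So do those of C1q macrophage-like cells, with a baseline ratio of 1.22 [0.978, 1.52], cDC2-like cells (1.58) and neutrophil-like cells (0.814). The baseline ratio of endothelial-like cells rests on 34 S/S cells.

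**Figure D1:**
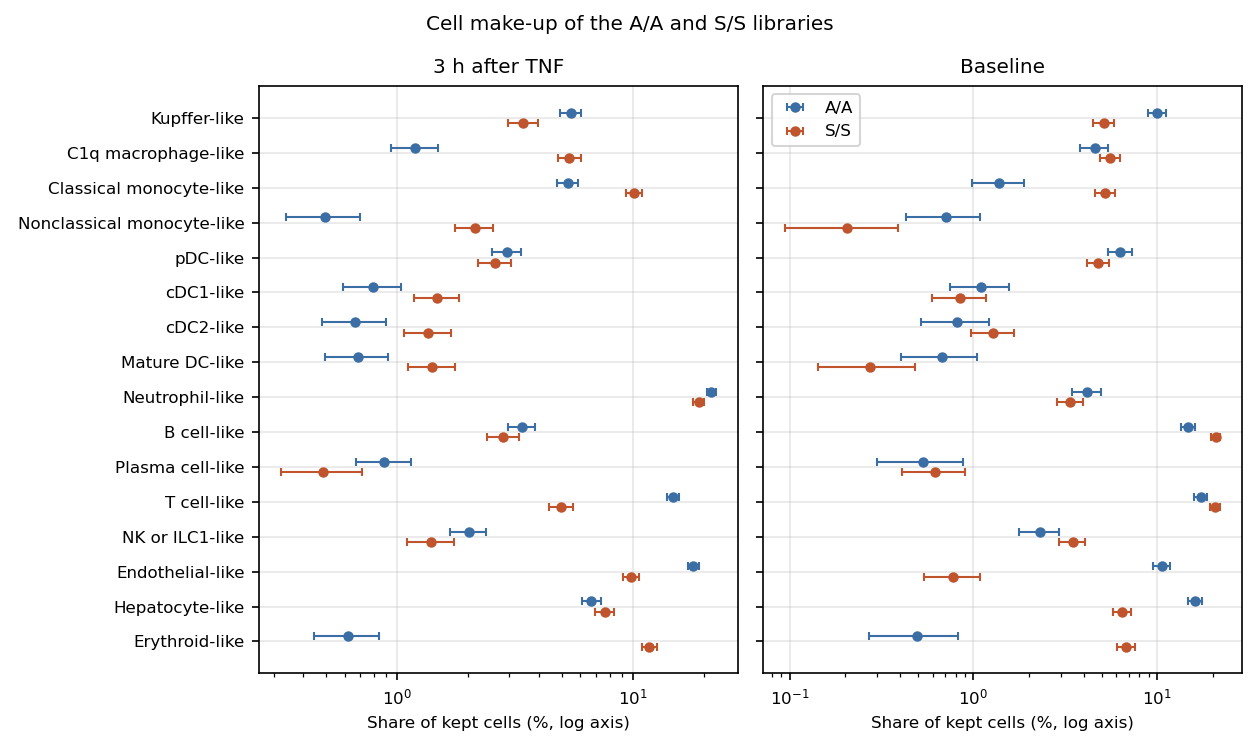
Share of kept cells in each gated cell type (horizontal log axis, percent) in the A/A library (blue) and the S/S library (orange), 3 h after TNF on the left and at baseline on the right. Points are 1 library each and bars are exact 95% intervals for counting error. After TNF the erythroid-like points lie at 0.620% and 11.8%, and the T cell-like points at 14.8% and 4.97%.

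Within the T cell-like gate, the balance of subset genes differed as well as the share; these genes were chosen after their values were seen. Cd8b1, the beta chain of the CD8 co-receptor, stood at 113 CPM (UMIs scaled to the total of the type) in A/A and 291 CPM in S/S, a log2 ratio of 1.36 [1.24, 1.49]. Klrb1c, the NK1.1 receptor carried by NK cells and innate-like T cells, stood at 347 and 187 CPM, a log2 ratio of -0.89 [-1.02, -0.76]. Cd4 was nearly level, at 53.6 and 51.2 CPM. Summed NK cell markers in this gate were 1500 and 2832 CPM, and their part in these values was not tested. The CD8 alpha chain gene Cd8a had a log2 ratio of at most 0.57 in the 3 types where it was compared. Its UMIs were found in 24.4% of A/A and 40.7% of S/S T cell-like cells, and those of Klrb1c in 62.3% and 34.2%. At baseline the shares lay the same way, at 19.5% and 39.6% for Cd8a and 54.8% and 21.2% for Klrb1c.

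For gene expression, UMIs were summed over the cells of a type in each library and set against the type's total, and the log2 ratio used a pseudocount of 1 CPM. The interval belongs to the ratio without the pseudocount, so for rare transcripts it can lie beyond the log2 ratio itself. A gene was compared in a type where both libraries together gave 20 UMIs or more, and called when it was at least 2-fold apart. The 11 types with at least 50 cells in both libraries entered. Most genes differed little. Of 101323 gene and type pairs, 3957 were at least 2-fold higher in S/S (3.91%) and 3537 at least 2-fold lower (3.49%). The direction without a threshold was above 0 in 44.8% of the pairs and below 0 in 55.2%. The median ratio of all genes in a type ran from -0.18 in cDC1-like to 0.06 in hepatocyte-like cells.

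C1q macrophage-like cells had 852 of 8966 genes at least 2-fold higher (9.5%) and 573 lower (6.39%). Counting error was wide there, and the interval lay clear of 0 for 245 of the 852 and 410 of the 573. The total of the type was 411337 UMIs in A/A and 4096448 in S/S, so genes higher in S/S rest on few A/A UMIs. Counts of intervals clear of 0 therefore cannot give the balance of direction in this type. Kupffer-like cells had 399 of 7478 higher (5.34%) and 418 lower (5.59%), of which 371 and 374 had such intervals. Hepatocyte-like cells had 371 of 5809 higher (6.39%) and 252 lower (4.34%), of which 334 and 191 did. Direction was lopsided in a pair of types. Classical monocyte-like cells had 416 of 11615 genes higher (3.58%) and 99 lower (0.852%). In cDC1-like cells, the dendritic cells that cross-present antigen, 217 of 7947 were higher (2.73%) and 527 lower (6.63%). Endothelial-like cells had 483 of 10976 higher (4.4%) and 344 lower (3.13%). The other types were closer to balance. The shares higher and lower were 3.15% and 2.49% of 12005 genes in T cell-like cells, 2.59% and 4.36% of 7675 in NK or ILC1-like cells and 2.2% and 3.29% of 9145 in B cell-like cells. They were 2.26% and 1.6% of 10116 in pDC-like cells and 2.21% and 2.37% of 9591 in neutrophil-like cells. Types with fewer UMIs have wider counting error, which adds calls on either side.

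Most genes past 2-fold were so in 1 type. Of 9012 genes compared in at least 6 types, 5581 (61.9%) were past 2-fold in none and 2229 (24.7%) in exactly 1. Genes were named broad when they were at least 2-fold apart in at least 2 of 3 of the types compared and never the other way; 33 were broad and higher (0.366%) and 9 broad and lower (0.0999%). The rule was also narrowed to genes at least as high in the type as in all other barcodes, in the library where they were higher. Then 4 were broad and higher and 0 broad and lower. The higher tail reached further, with 3 genes higher in 11 types, whereas no gene was at least 2-fold lower in more than 8. By direction alone, 109 of the 6908 genes compared in 9 types or more were above 0 in every type (1.58%) and 183 were below 0 in every type (2.65%), a rule chosen after values were seen.

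**Figure D2:**
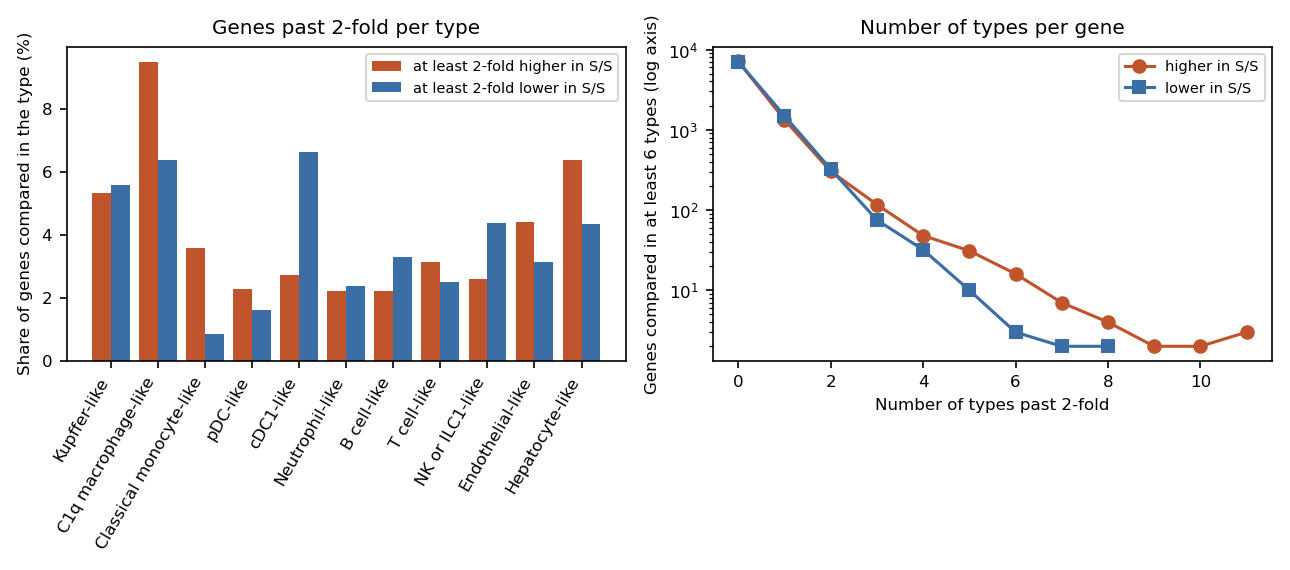
Left, share of compared genes in each type (bars from 0, percent) that were at least 2-fold higher (orange) or lower (blue) in S/S after TNF, 1 library per genotype. Right, number of genes compared in at least 6 types (vertical log axis) by the number of types in which they were past 2-fold; numbers of 0 are left blank. The higher curve ends with 3 genes in 11 types.

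The widest differences were in hemoglobin and other red cell genes. Hba-a1 (alpha globin), Hbb-bt (beta globin) and Hba-a2 were at least 2-fold higher in S/S in 11 of 11 types, and Hbb-bs in 10 of 10. Hba-a1 stood at 13.8 CPM in A/A and 1161 CPM in S/S T cell-like cells, a log2 ratio of 6.29 [6.16, 6.63]. In hepatocyte-like cells it stood at 79.6 and 1413 CPM, a log2 ratio of 4.13 [3.83, 4.49]. B cell-like cells had its smallest ratio, 2.52, and there a single barcode held 93% of the A/A UMIs. Median log2 ratios over types were 5.71 for Hbb-bt, 4.78 for Hba-a1, 4.10 for Hbb-bs, 4.0 for Hba-a2 and 3.45 for the embryonic globin Hba-x (8 of 8 types).

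Other red cell genes were higher beside the globins. Bpgm, which makes the 2,3-bisphosphoglycerate that lowers oxygen affinity, was at least 2-fold higher in 10 of 11 types with a median of 2.38. The heme synthesis enzyme gene Alas2 (9 of 10, median 3.61) was also broad. Alas2 was the exception in hepatocyte-like cells, at 82.5 and 57.1 CPM, and its median was -0.31 with each cell thinned to 1000 UMIs. Slc4a1, the anion exchanger of the red cell membrane, passed the count filter in 3 types and was at least 2-fold higher in all 3. The filter sums the UMIs of both libraries, so a type can pass on S/S counts alone. Slc25a37, the mitochondrial iron importer, was at least 2-fold apart in 0 of 9 types. Where a gene had 0 UMIs in 1 library it was also placed at its bound against a floor of 3 UMIs per library and type, which set the medians of Bpgm, Alas2 and Hbb-bs at 2.24, 3.22 and 3.98, and the number of types called for Hba-x at 7 of 8. The whole list held 77 of 88 pairs at least 2-fold higher, or 75 with bounds, beside 3.91% of all pairs.

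The summed level of the globin and red cell list ran from 17.3 CPM (cDC1-like) to 965 CPM (B cell-like) over the 11 A/A types and from 879 CPM (classical monocyte-like) to 4710 CPM (B cell-like) over the S/S types and was higher in S/S in each of the 11. Free RNA in droplets gives UMIs of a gene to cells that do not express it, and erythroid-like cells were 11.8% of the S/S library; the part of either in these values was not tested. The summed level of the 17 erythroid markers was also higher in all 11 types, for example at 13.5 and 99.4 CPM in endothelial-like cells, where the markers at 0 included Klf1 and Rhag in S/S and Epb42, Trim10 and Kel in A/A. The baseline pair had globin medians on the same side, 6.01 for Hba-a1 and 7.22 for Hbb-bt over 8 types.

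Beyond red cell genes, the broad higher set held oxygen-response genes, the HSP70 genes Hspa1a and Hspa1b, the histone genes H1f2 and H2ac4, and the cell division genes Spc24, Spc25, Cdca8, Ccna2 and Rrm2. The chemokine genes Ccl7 and Ccl17 and the genes Ndufa12-ps, Ifi27l2a, Cd63, Nfil3 and Cela1 were also in it. Those ranked after the first 12 and in none of the lists are named to complete the set. Hilpda was at least 2-fold higher in 8 of 11 types (median 1.49) and the linker histone gene H1f2 in 8 of 11 (median 1.08). Nrgn, which encodes a calmodulin-binding protein, was past 2-fold in 8 of 10 types (median 1.24), and Hspa1b in 7 of 9 (median 1.96). H1f2 was also the most even of these, higher in all 11 types with ratios from 0.60 in neutrophil-like to 2.34 in C1q macrophage-like cells. In T cell-like cells it stood at 70.6 CPM in A/A and 153 CPM in S/S. Nrgn counts sat in few cells in some types, with 75% of its A/A hepatocyte-like UMIs in a single barcode. Markers of other cell types are counted apart. They were Pf4 (listed for platelets), Cd5l (Kupffer cells), Ccr7 (mature dendritic cells) and F13a1 (classical monocytes). Pf4 was also among the 10 leading genes of C1q macrophage-like cells in both TNF libraries. Ccr7 was called in 4 of 7 types when genes at 0 were placed at their bound.

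The hypoxia response list held 25 genes, chosen as named targets of the HIF pathway, and all 25 were compared in at least 1 type. Of its 205 gene and type pairs, 68 were at least 2-fold higher in S/S (33.2%) and 1 was at least 2-fold lower, beside 3.91% and 3.49% of all pairs. Above 0 were 172 of the 205. The median ratio was 0.55 over these pairs, and the type medians ran from 0.00 in B cell-like to 1.41 in endothelial-like cells. Placing the 2 pairs at 0 UMIs at their bound left the count of 68 and the median of 0.55 as they were.

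Endothelial-like cells had the most members past 2-fold, 15 of 23. Classical monocyte-like cells had 11 of 22 (median 0.97), C1q macrophage-like cells 10 of 19 (1.19), neutrophil-like cells 8 of 19 (0.80), Kupffer-like cells 7 of 19 (0.52) and hepatocyte-like cells 6 of 16 (0.72). Lymphoid and dendritic types had fewer. NK or ILC1-like cells had 4 of 17 (median 0.33), T cell-like cells 3 of 21 (0.31), pDC-like cells 3 of 19 (0.44), cDC1-like cells 1 of 13 (0.12) and B cell-like cells 0 of 17. Lists and members were chosen with results of these data known, so these counts describe the libraries.

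Among the oxygen sensors and their feedback genes, Egln3 was higher in 8 of 8 types and at least 2-fold in 6. In neutrophil-like cells Egln3 stood at 28.7 CPM in A/A and 197 CPM in S/S, a log2 ratio of 2.73 [2.57, 2.98]. In classical monocyte-like cells it stood at 7.01 and 59.97 CPM, a log2 ratio of 2.93 [2.69, 3.54]. In pDC-like cells it was low in both, at 3.17 and 4.22 CPM, with an interval that includes 0. The C1q macrophage-like cells had no Egln3 UMI in A/A and 119 in S/S, at least 3.98-fold higher. Egln1, the main oxygen sensor, differed less, with a median of 0.31 and 2 of 11 types past 2-fold. Ankrd37 was higher in 8 of 8 types (4 past 2-fold) and Kdm3a, a histone demethylase, in 5 of 10 (0 past 2-fold).

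Genes of mitochondria and metabolism within the list are next. Hilpda stood at 36.4 and 154 CPM in endothelial-like cells, a log2 ratio of 2.05 [1.85, 2.31], and at 13.7 and 66.8 CPM in classical monocyte-like cells. In Kupffer-like cells, where it was high in both libraries, Hilpda stood at 114 and 122 CPM, with an interval of [-0.24, 0.43]. Bnip3 was higher in 10 of 10 types and at least 2-fold in 5. It stood at 53.6 and 176 CPM in classical monocyte-like cells, a log2 ratio of 1.70 [1.56, 1.88], and at 31.5 and 167 CPM in endothelial-like cells. The related Bnip3l had a median of 0.30, and Pdk1, a pyruvate dehydrogenase kinase gene, was past 2-fold in 4 of 11 types (median 0.63). Mxi1, a MYC antagonist, was past 2-fold in 7 of 9 types, from 8.34 to 65.5 CPM in endothelial-like cells.

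Ero1a, which oxidises disulfide bonds in the secretory pathway, was at least 2-fold higher in 6 of 11 types. It stood at 47.2 CPM in A/A and 350 CPM in S/S endothelial-like cells, a log2 ratio of 2.86 [2.70, 3.08]. In neutrophil-like cells it stood at 56.7 and 154 CPM. B cell-like and cDC1-like cells showed no such gap, at 18.1 and 15.4 CPM and at 22.5 and 22.5 CPM. The mitochondrial protein gene Higd1a (median 0.46) and the cytokine gene Mif (median 0.35) were higher in 10 and 11 of 11 types. The collagen hydroxylase genes P4ha1 (9 of 10 types higher, 0 past 2-fold) and Plod2 (2 of 4 past 2-fold) and the growth arrest gene Ndrg1 (5 of 11 past 2-fold) were more uneven. Fam162a, Rora and Gbe1 had medians of 0.18, 0.30 and 0.06. Gbe1, a glycogen enzyme, gave the single pair past 2-fold the other way, -1.23 in C1q macrophage-like cells, where a single barcode held 64% of the A/A UMIs.

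Vegfa, the growth factor of blood vessels, was at least 2-fold higher in 5 of the 6 types where it passed the count filter. It stood at 5.79 CPM in A/A and 53.0 CPM in S/S endothelial-like cells, a log2 ratio of 2.99 [2.67, 3.76], and at 1.51 and 22.7 CPM in classical monocyte-like cells. Neutrophil-like cells were the exception, at 18.7 and 22.3 CPM. With C1q macrophage-like cells at their bound (at least 5.02-fold higher), the Vegfa median was 2.14. Slc2a1, the glucose transporter of most tissues, was higher in 10 of 10 types and past 2-fold in endothelial-like cells alone, at 21.5 and 240 CPM with a log2 ratio of 3.42 [3.21, 3.76]. Slc2a3, the transporter typical of leukocytes, was lower in 6 of 7 types and within 2-fold in those 6. Its exception was again endothelial-like cells, at 3.06 and 9.54 CPM.

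**Figure D3:**
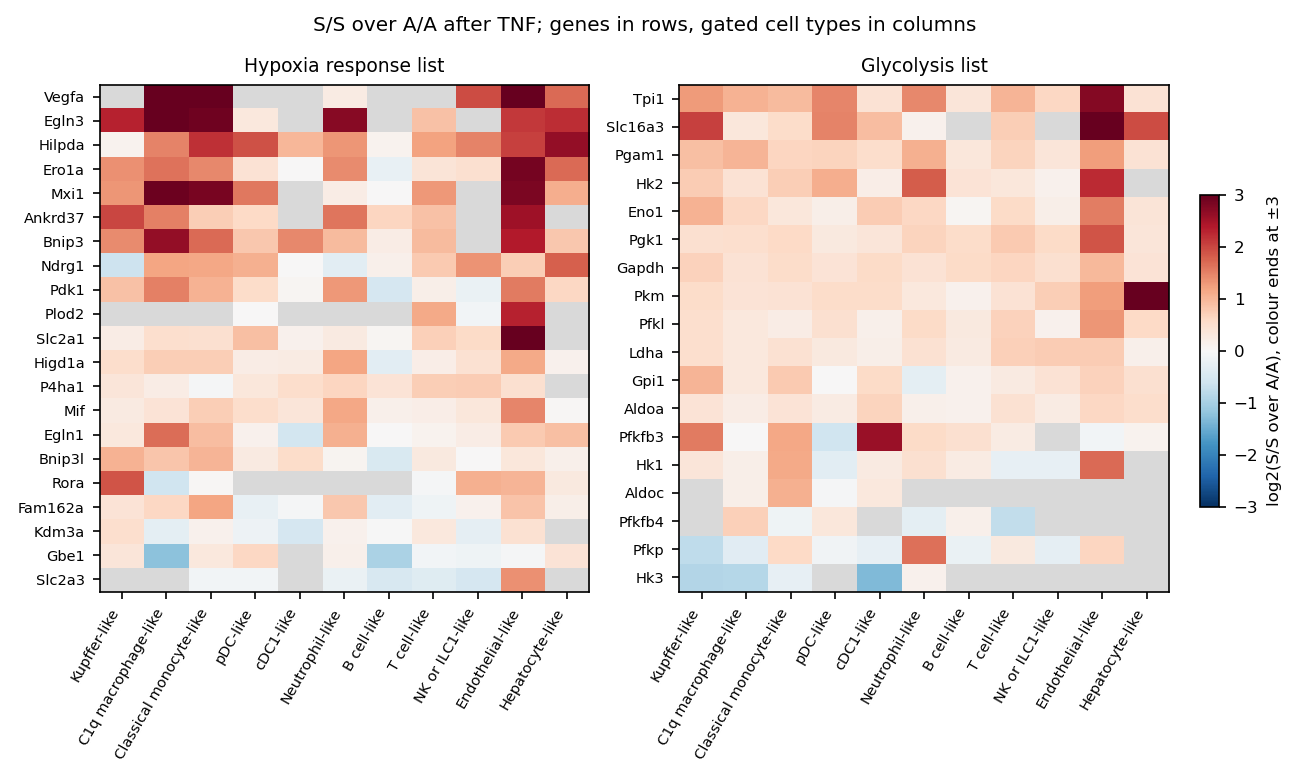
Log2 ratio of S/S over A/A after TNF (colour, ends at 3 and -3) for each gene of the hypoxia response list on the left and the glycolysis list on the right that was compared in at least 4 types; rows are genes by median ratio, columns are cell types, grey marks genes with under 20 UMIs in the pair. The endothelial-like column is the reddest in both panels, with type medians of 1.41 and 1.25.

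The glycolysis list had a median above 0 in 11 of 11 types. Of 175 pairs, 30 were at least 2-fold higher (17.1%) and 1 lower, beside 3.91% and 3.49% of all pairs, and 154 were above 0. Type medians ran from 0.27 in B cell-like to 1.25 in endothelial-like cells. The central enzymes differed by small and even amounts. Gapdh was higher in 11 of 11 types with ratios from 0.40 to 0.97, and all 11 intervals lay above 0. It stood at 686 and 1080 CPM in T cell-like cells and at 206 and 404 CPM in endothelial-like cells. Pgk1 (median 0.55) and Pgam1 (median 0.66) also had 11 of 11 intervals above 0.

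Eno1, Ldha, Aldoa, Pkm and Pfkl were each higher in 11 of 11 types, with medians of 0.57, 0.47, 0.40, 0.54 and 0.47. Tpi1 had the largest median of the list, 1.01, past 2-fold in 6 of 11 types. It stood at 61.4 and 169 CPM in neutrophil-like cells and at 20.4 and 145 CPM in endothelial-like cells, a log2 ratio there of 2.76 [2.54, 3.12]. Slc16a3, which exports lactate, was higher in 9 of 9 types and spanned the widest range, from 0.14 in neutrophil-like cells (323 and 356 CPM) to 4.25 [3.97, 4.92] in endothelial-like cells (6.98 and 151 CPM). Hk2, the inducible hexokinase, was higher in 10 of 10 types, at 23.4 and 85.5 CPM in neutrophil-like cells. Gpi1 was higher in 10 of 11 types (median 0.44), Pfkfb3 in 8 of 10 (0.37), Hk1 in 7 of 10 (0.26) and Aldoc in 3 of 4 (0.25). Pfkfb4 and Pfkp were split, higher in 3 of 6 and 4 of 10 types, and Hk3, the myeloid hexokinase, was lower in 4 of 5. The Pkm ratio of 3.10 in hepatocyte-like cells rested on a single barcode with 75% of the S/S UMIs.

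In endothelial-like cells the depth per cell and the marker levels of other types also differed. Their median was 2536 UMIs in A/A and 4758.5 in S/S. Summed endothelial markers were 8690 and 7902 CPM, with 20 of 20 detected above the other cells in both, summed neutrophil markers 168 and 294 CPM and the red cell list 133 and 1943 CPM. Their part in the oxygen and glycolysis values was not tested. With each cell thinned to 1000 UMIs, 29 of 91 hypoxia pairs were at least 2-fold higher (31.9%), beside 4.39% of all pairs. Where a gene had to be at least as high in its type as in all other barcodes, 30 of 88 were (34.1%), beside 3.56%. That rule was applied only in the library where the gene was higher, so a gene higher in S/S passed through S/S alone. Without the C1q macrophage-like type the figures were 58 of 186 (31.2%) and 3.36%, an alternative chosen after seeing the data.

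At baseline the hypoxia medians ran from -0.21 to 0.68 over 8 types and were above 0 in 6, and the glycolysis medians from 0.32 to 0.87 and above 0 in 8. Endothelial-like, classical monocyte-like and cDC1-like cells have no baseline value for any gene, as each had under 50 cells in a baseline library. The first 2 of these had the most hypoxia members past 2-fold after TNF. The baseline pair was shifted as a whole for housekeeping lists, with medians of 0.23 to 0.78 for nuclear respiratory chain genes and 0.48 to 1.07 for ribosomal protein genes. After TNF these lists ran from -0.15 to 0.19 and from -0.04 to 0.33, with 0 of 330 and 0 of 352 pairs past 2-fold in either direction. Egln3, Hilpda and Bnip3 had baseline medians of 0.92, 0.50 and 0.50 over the 3, 4 and 5 types compared, and Ero1a and Slc2a1 both had -0.04 over 6.

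The interferon-stimulated gene list had a median below 0 in 9 of 11 types and above 0 in classical monocyte-like (0.41) and pDC-like cells (0.087), and it held calls in both directions. Of 338 pairs, 44 were at least 2-fold lower (13.02%, beside 3.49% of all pairs) and 31 at least 2-fold higher (9.17%, beside 3.91%). Below 0 were 221, beside 55.2% of all pairs. The lowest type median was -0.56, in NK or ILC1-like cells. Classical monocyte-like, pDC-like and neutrophil-like cells had 8 of 38, 5 of 28 and 4 of 35 members past 2-fold higher and 0 lower. Irf9, an interferon regulatory factor gene, was lower in 11 of 11 types (median -0.40), as were Ifi47 (-0.48) and Xaf1 (-0.35). Trim30a was lower in 10 of 10 types (median -0.52), and all 4 were chosen after their values were seen.

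Single members of the list differed more. Cxcl9, which attracts T cells, stood at 460 and 103 CPM in Kupffer-like cells, a log2 ratio of -2.15 [-2.45, -1.88], and Gbp3 at 174 and 52.6 CPM, -1.71 [-2.15, -1.32]. These too were chosen after their values were seen. Irgm2, an immunity-related GTPase gene, was among the 9 broad lower genes, lower in 9 of 9 types and at least 2-fold in 6. In contrast Ifi27l2a was higher in 10 of 10 types (median 1.43) and Rsad2 (viperin, an antiviral enzyme) in 6 of 8 (median 1.28). Rsad2 stood at 3.02 and 32.9 CPM in classical monocyte-like cells, a log2 ratio of 3.08 [2.83, 4.14], with 36% of the S/S UMIs in a single barcode. Ifit2 and Oasl1, past 2-fold higher in 3 of 5 types each, completed the 4 members with the largest absolute median. In the baseline pair the list median was above 0 in 6 of 8 types.

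**Figure D4:**
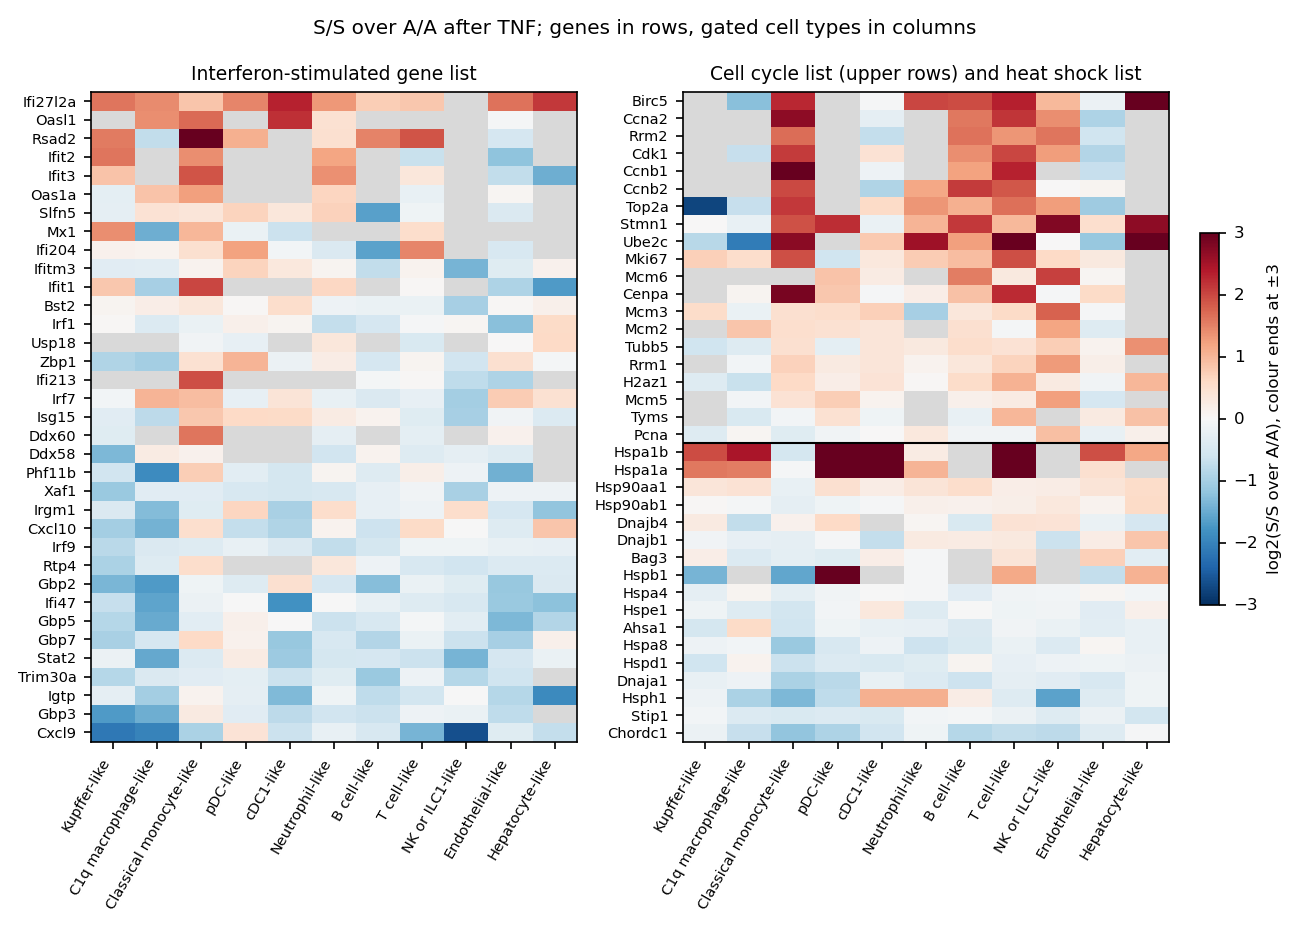
Log2 ratio of S/S over A/A after TNF (colour, ends at 3 and -3) for the interferon-stimulated genes reported here on the left and the cell cycle and heat shock lists on the right, which a black line parts, in genes compared in at least 4 types; rows are genes by median ratio within each list, columns are cell types, grey marks genes with under 20 UMIs in the pair. The Trim30a row is below 0 in all 10 types compared, whereas the classical monocyte-like column is red for the upper interferon rows and for most cell cycle rows.

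Immunoglobulin transcripts were 4 of the 9 broad lower genes. Igha and Igkc, the IgA heavy chain and the kappa light chain, were at least 2-fold lower in 8 of 11 types with medians of -1.20 and -1.08, and Iglc1 in 6 of 8 (-1.85) and Ighg2c in 5 of 6 (-2.09). Igkc stood at 277 CPM in A/A and 112 CPM in S/S neutrophil-like cells, a log2 ratio of -1.30 [-1.43, -1.18]. B cell-like cells had it at 5528 and 6490 CPM, a log2 ratio of 0.23 [0.19, 0.27]. Over the list of 10 immunoglobulin genes, 34 of 80 pairs were past 2-fold lower and 2 higher, 1 each in Kupffer-like and neutrophil-like cells, beside 3.49% and 3.91% of all pairs. Plasma cell-like cells, whose leading genes in A/A included Iglc1, Igha and Igkc, were 57 cells in A/A and 27 in S/S, and their part in these values was not tested. At baseline Igha, Igkc and Iglc1 had medians of 1.40, 1.39 and 1.29, the other way.

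The other broad lower genes were Cxcl13, Asb2, Trbc2 and Fam167b. Cxcl13, a chemokine that attracts B cells, was lower in 9 of 9 types and past 2-fold in 7 (median -1.92). Its highest level was in Kupffer-like cells, at 1999 and 1278 CPM, a log2 ratio of -0.64 [-0.74, -0.55]. In neutrophil-like cells it stood at 19.7 and 4.49 CPM. Asb2, a ubiquitin ligase subunit gene, stood at 96.9 and 33.3 CPM in T cell-like cells, a log2 ratio of -1.51 [-1.85, -1.24], and at 92.5 and 25.7 CPM in cDC1-like cells. Trbc2, a T cell marker, was lower in 5 of 6 types and higher in T cell-like cells themselves, at 1158 and 1351 CPM. Fam167b had its highest level in endothelial-like cells, at 150 and 93.6 CPM, and with T cell-like cells at their bound was past 2-fold in 3 of 6 types.

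Heat shock genes split in 2 directions. Hspa1a and Hspa1b, the stress-induced HSP70 genes, were at least 2-fold higher in S/S in 6 of 8 and 7 of 9 types, at 0.182 and 57.6 CPM for Hspa1a in T cell-like cells. Few cells carried these UMIs. A single S/S barcode held 43% of the Hspa1a UMIs in T cell-like cells, 33% in pDC-like cells and all of them in cDC1-like cells. The rest of the list leaned lower, and the list median was below 0 in 11 of 11 types, from -0.54 in classical monocyte-like to -0.03 in endothelial-like cells. In 4 of these types it lay above the median of all genes, for example at -0.04 against -0.18 in cDC1-like cells. Chordc1 (median -0.70), Stip1 (-0.39) and Dnaja1 (-0.35), all cochaperone genes, were lower in 11 of 11 types. Hsph1, Hspd1, Hspa8 and Ahsa1 had medians of -0.38, -0.24, -0.23 and -0.23, and Hspe1, Hspa4, Hspb1, Bag3, Dnajb1, Dnajb4 and Hsp90ab1 lay between -0.12 and 0.12. Hsp90aa1 was higher in 10 of 11 types (median 0.38). At baseline Hspa1b had a median of -2.36 over 4 types and Hspa1a of -2.91 over 3.

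Immediate early genes, the first transcription factors made after a stimulus or during cell isolation, were past 2-fold higher in 23 and lower in 9 of 208 pairs, beside 3.91% and 3.49% of all pairs. No member was broad. Hepatocyte-like cells had 8 of 14 past 2-fold higher (median 1.25) and endothelial-like cells 6 of 20 (0.32), whereas cDC1-like cells had 4 of 18 past 2-fold lower (-0.59). Egr1 stood at 48.4 and 136 CPM in endothelial-like cells, a log2 ratio of 1.47 [1.28, 1.70], and at 68.3 and 19.8 CPM in cDC1-like cells, -1.74 [-2.39, -1.20]. Fos stood at 3.88 and 64.8 CPM in hepatocyte-like cells, with 51% of the S/S UMIs in a single barcode, and at 214 and 57.8 CPM in cDC1-like cells. Over types Egr2, Fosb and Nr4a1 had medians of -0.88, -0.54 and -0.32, and Atf3, Nr4a2 and Dusp2 of 0.84, 0.70 and 0.58. Medians of the other members (Klf2, Ier5, Maff, Klf4, Fos, Btg2, Klf6, Ier2, Zfp36, Jund, Egr1, Jun, Junb, Fosl2 and Dusp1) lay between -0.22 and 0.23.

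The metallothionein genes Mt1 and Mt2, whose products bind zinc and copper, were higher in S/S in every type compared but hepatocyte-like cells. Mt1 was higher in 10 of 11 types and at least 2-fold in 5, and Mt2 in 10 of 11 and 4. Mt1 stood at 6378 CPM in A/A and 13620 CPM in S/S endothelial-like cells, a log2 ratio of 1.09 [1.08, 1.11], and at 564 and 1702 CPM in classical monocyte-like cells. In hepatocyte-like cells, which hold the most, it stood at 24997 and 20380 CPM, -0.29 [-0.32, -0.27]. The zinc transporter genes Slc30a1, Slc39a10 and Slc39a14 had medians of 0.34, 0.09 and 0.04.

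Cell cycle genes were higher in S/S in some types and not in others. Of 171 pairs, 53 were at least 2-fold higher (31.0%) and 6 lower, beside 3.91% and 3.49% of all pairs. T cell-like cells had 12 of 20 past 2-fold higher (median 1.18), classical monocyte-like cells 11 of 19 (1.92), B cell-like cells 10 of 20 (0.99) and NK or ILC1-like cells 10 of 18 (1.20), while endothelial-like and cDC1-like cells had 0 of 20 each. Hepatocyte-like cells had 4 of 7 past 2-fold higher (1.37), neutrophil-like cells 5 of 12 (0.54) and pDC-like cells 1 of 12 (0.46). Kupffer-like and C1q macrophage-like cells had 0 of 8 and 0 of 15. At baseline the list median ran from -0.77 to 4.10 and was above 0 in 7 of 8 types. Birc5 (median 1.95), Ccna2 (1.49), Rrm2 (1.47) and Cdk1 (1.25), genes of mitosis and DNA synthesis, led the list after TNF. Birc5 stood at 20.9 CPM in A/A and 109 CPM in S/S T cell-like cells, a log2 ratio of 2.33 [2.13, 2.63]. In classical monocyte-like cells it stood at 4.53 and 25.7 CPM. Dividing cells were few, and a single barcode held 15% and 16% of the Birc5 UMIs in T cell-like cells of A/A and S/S and 64% of those in A/A B cell-like cells.

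The stress response lists differed most in cDC1-like and endothelial-like cells. The integrated stress response list, amino acid synthesis and transport genes under ATF4, was at least 2-fold lower in 8 of 13 cDC1-like members (median -1.57) and at least 2-fold higher in 6 of 15 endothelial-like members (0.71). It was also past 2-fold lower in 4 of 15 C1q macrophage-like, 3 of 12 NK or ILC1-like and 3 of 14 Kupffer-like members, beside 6.39%, 4.36% and 5.59% of all genes in these types. Of all genes, 6.63% were past 2-fold lower in cDC1-like cells and 4.4% past 2-fold higher in endothelial-like cells. Asns, asparagine synthetase, was past 2-fold lower in 6 of 11 types (median -1.36) and higher in 1. It stood at 84.7 and 18.7 CPM in cDC1-like cells, a log2 ratio of -2.12 [-2.78, -1.61]. Gdf15, a stress cytokine gene, stood at 23.4 and 141 CPM in Kupffer-like cells, with 46% of the S/S UMIs in a single barcode. Mthfd2 was past 2-fold lower in 5 of 11 types (median -0.86) and Slc7a5 in 3 of 10 (-0.80). The unfolded protein response list was past 2-fold higher in 6 of 18 endothelial-like members (median 0.68) and in 0 of the members of any other type. In classical monocyte-like cells 18 of 18 members were below 0 (median -0.42), none past 2-fold. Its largest absolute medians over types were small, -0.43 for Syvn1, -0.32 for Dnajb9, -0.27 for Hyou1 and 0.18 for Sdf2l1.

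Of the antigen presentation genes, those of MHC class I were below 0 in 141 of 173 pairs, beside 55.2% of all pairs. Past 2-fold lower were 8 of the 173, near the 3.49% of all pairs, and 5 of the 8 were in endothelial-like cells. H2-K1 was lower in 11 of 11 types, at 2022 and 954 CPM in endothelial-like cells, a log2 ratio of -1.08 [-1.14, -1.03]. H2-Q7 stood there at 237 and 54.2 CPM, -2.10 [-2.34, -1.92]. Tap2, the peptide transporter, and Nlrc5, the class I transactivator, had medians of -0.43 and -0.30. At baseline the median of the class I list was above 0 in 7 of 8 types. MHC class II genes were past 2-fold lower in 5 of 10 Kupffer-like members, beside 5.59% of all genes there. They were past 2-fold higher in 6 of 8 endothelial-like and 6 of 6 hepatocyte-like members, beside 4.4% and 6.39%. Over all types 13 of 113 pairs were past 2-fold higher and 7 lower, beside 3.91% and 3.49% of all pairs. H2-Ab1, chosen after its values were seen, stood at 2991 and 1092 CPM in Kupffer-like cells, -1.45 [-1.54, -1.36], and at 73.2 and 211 CPM in endothelial-like cells, 1.51 [1.35, 1.70]. In hepatocyte-like cells it stood at 48.5 and 197 CPM, with 41% of the S/S UMIs in a single barcode. Hepatocyte-like barcodes were shallow, with medians of 1490 UMIs in A/A and 1032 in S/S. Their summed hepatocyte markers were 49875 and 37206 CPM, and the part of free RNA in these values was not tested. Over types Ciita, Ctss, Cd80 and Cd86 had medians of -0.54, 0.38, -0.36 and 0.26.

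Genes of the NF-kB and TNF response shared no direction, with 42 pairs past 2-fold higher and 26 lower of 391, beside 3.91% and 3.49% of all pairs. Hepatocyte-like cells had 10 of 31 past 2-fold higher and C1q macrophage-like cells 7 of 38 lower. Cxcl2, which attracts neutrophils, stood at 129 and 611 CPM in hepatocyte-like cells, a log2 ratio of 2.23 [1.96, 2.53], at 5965 and 8857 CPM in neutrophil-like cells and at 2166 and 1218 CPM in C1q macrophage-like cells. Ccl5 was past 2-fold lower in 5 of 11 types but stood at 5055 and 9658 CPM in T cell-like cells, a log2 ratio of 0.93 [0.91, 0.95]. Ptgs2 and Cxcl1 had medians of 1.20 and 0.86 over the 6 types in which each was compared.

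Among iron genes, Hamp, which encodes the iron hormone hepcidin, stood at 6236 CPM in A/A and 1818 CPM in S/S hepatocyte-like cells, a log2 ratio of -1.78 [-1.86, -1.70]. It was past 2-fold lower in 5 of 10 types and higher in 1. The other members with large medians were Slc40a1, the iron exporter ferroportin (0.74), Lrp1 (0.73) and Hpx, a heme-binding plasma protein (0.66). Of the glucocorticoid list, Ddit4, an inhibitor of mTOR that oxygen shortage also induces, was higher in 11 of 11 types (median 0.83), at 13.1 and 104 CPM in endothelial-like cells. Zbtb16, Cdkn1a and Cebpd had medians of -0.76, 0.72 and -0.61.

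**Figure D5:**
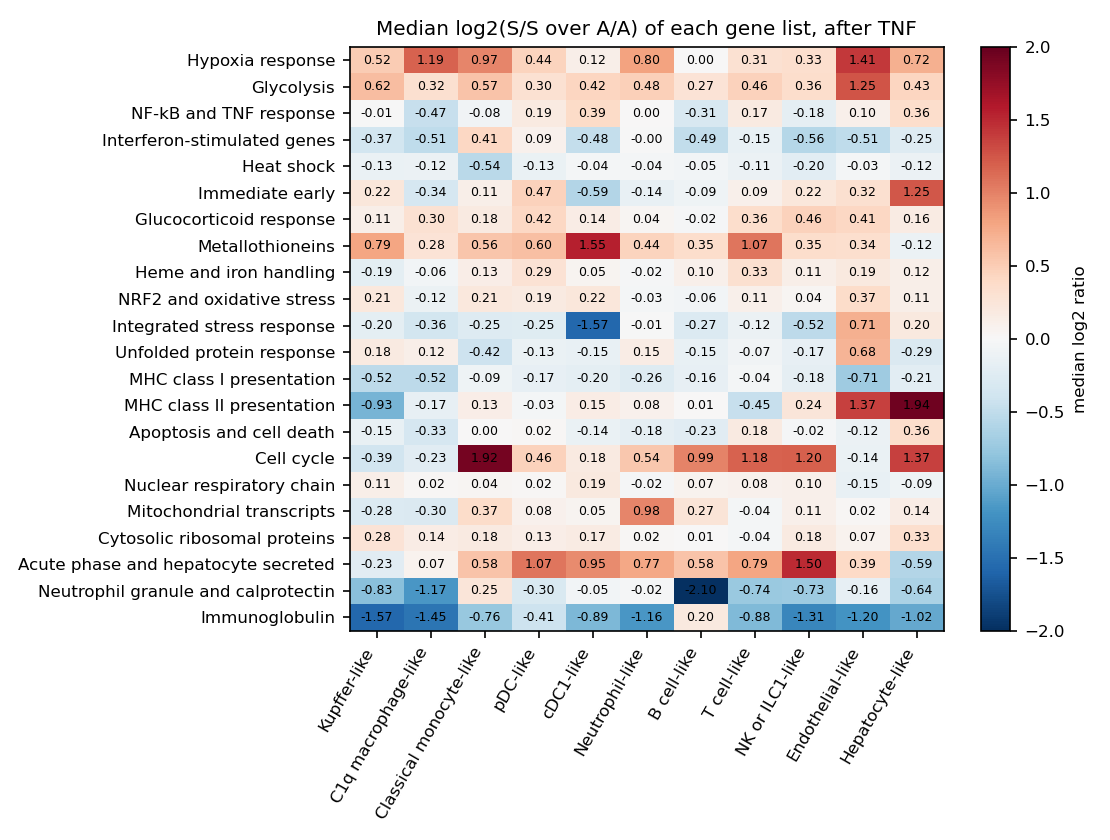
Median log2 ratio of S/S over A/A after TNF for each gene list (rows) in each of the 11 cell types (columns), printed in each cell and coloured from -2 to 2; grey marks types with under 3 members compared. The hypoxia response and glycolysis rows are above 0 in 11 types, and the MHC class I and heat shock rows below 0 in 11. The heat shock row lies above the median of all genes in 4 types.

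Genes past 2-fold in 1 type and within 0.5 of 0 on the log2 scale in all other types compared were few and spread over types. Each was compared in at least 6 types, such as 6 for Tspan2 and 8 for Eva1b. The word alone means alone among the types compared. Counts higher and lower were 12 and 13 in endothelial-like cells, 14 and 14 in Kupffer-like, 17 and 10 in C1q macrophage-like, 22 and 11 in hepatocyte-like and 2 and 34 in cDC1-like cells. Classical monocyte-like and T cell-like cells had 0 and 1 and 1 and 1. In endothelial-like cells Hspa5, the main chaperone of the endoplasmic reticulum, stood at 978 CPM in A/A and 2326 CPM in S/S, a log2 ratio of 1.25 [1.20, 1.30]. Rtl8a (1.27) and the noncoding gene C230096K16Rik (1.16) were also higher there alone. Nuak2, a kinase gene, stood at 129 and 47.4 CPM, -1.42 [-1.68, -1.21], and Eva1b (-1.66) and Whamm (-1.16) were lower with it.

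In Kupffer-like cells Ctnnb1, beta-catenin, stood at 237 and 109 CPM, a log2 ratio of -1.11 [-1.42, -0.82], with Max (-1.05) lower and Abhd12 (1.07) and Cdc40 (1.05) higher. In neutrophil-like cells mt-Nd5, a mitochondrially encoded subunit of complex I, stood at 615 and 1259 CPM, 1.03 [0.98, 1.09], and Tspan2 at 92.4 and 45.4 CPM. The mitochondrial transcripts as a list were past 2-fold higher in 5 of 12 members in neutrophil-like cells, beside 2.21% of all genes there. In every other type they were so in 0 of 12. In cDC1-like cells Lrrk2 (-1.34) and Ppil2 (-1.19) were lower, as was Atg2a (-2.08), of which a single barcode held 71% of the A/A UMIs. Upf1 (-1.08) was lower in NK or ILC1-like cells alone. In C1q macrophage-like cells Tmem109 (2.43), Lyrm2 (1.60) and Dennd4b (1.49) were higher and Tia1 (-1.45), Cdc37l1 (-1.41) and Traf3 (-1.07) lower, on few A/A UMIs.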

How the data were processed

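Single-cell 3′ libraries (Chromium v3.1, per the labels' protocols) gave the UMI counts per gene and barcode that the authors deposited. Cell Ranger 6.1.2 for the TNF pair, 7.1.0 for the baseline pair and the build mm39 are named per the submitters' processing notes. The software therefore differs between the pairs and not within them. The tables held 55414 features, and 467 of 469 listed genes in 25 lists were found. Symbols used by more than 1 gene (79) were kept by gene identifier, and transcripts of near-identical copies such as the globin and Hspa1 genes may be split between them.

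A barcode was kept when it held 300 genes or more and when mitochondrial transcripts were 20% or less of its UMIs. The 19 gates asked for at least 3 distinct markers (4 for classical monocytes), at least 5 marker UMIs and a minimum share of the UMIs. Raw counts were summed per type and library, divided by the type's total and compared as log2 ratios with a pseudocount of 1 CPM in genes with at least 20 UMIs. Intervals are exact binomial ones at 95% (Clopper-Pearson for shares), and with 1 library a group no test was run. The calculation was tested on simulated data. Tables were handled in Python 3.11.15 with pandas 2.3.3, intervals came from scipy 1.17.1 on numpy 2.4.6, and plots from matplotlib 3.10.9.

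The genes named are the 12 broad genes in each direction by number of types and size of the median, and up to 3 genes each way per type among those past 2-fold there alone with at least 100 UMIs and 20 CPM. They are joined by every member compared in at least 4 types of the hypoxia, glycolysis, heat shock, immediate early, metallothionein and red cell lists, and up to 4 members of the other lists. Members, lists and rules were chosen with earlier results of these data known. A few genes that this rule names are not reported here.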

Additional observations from a re-analysis of the deposited data

Results flagged for a closer look

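Several values lay on opposite sides in the pair of libraries after TNF and in the baseline pair, with 1 library in each group, so the difference between the pairs was not tested. The pairs also differ in software version and in the level of housekeeping genes. For shares of cells, the ratio of S/S over A/A after TNF and at baseline was 4.30 and 0.292 for nonclassical monocyte-like cells, 2.07 and 0.409 for mature DC-like cells, 0.337 and 1.20 for T cell-like cells and 0.691 and 1.51 for NK or ILC1-like cells. The baseline libraries held 20 and 9 nonclassical monocyte-like cells and 19 and 12 mature DC-like cells.

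Among the broad genes, the median log2 ratio over types after TNF and at baseline was 1.96 and -2.36 for Hspa1b and 1.56 and -2.91 for Hspa1a. It was -1.20 and 1.40 for Igha, -1.08 and 1.39 for Igkc and -1.85 and 1.29 for Iglc1.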

How the results depend on the processing

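Of the values that answer a comparison, 122 recomputed under an alternative stayed near the value reported and 29 moved. With barcodes of 500 genes or more and 10% mitochondrial transcripts or less, the share ratio was 7.73 for C1q macrophage-like, 0.626 for endothelial-like, 13.1 for erythroid-like and 0.889 for hepatocyte-like cells, the last on the other side of 1. Counts past 2-fold were smaller under 4 settings, given here in the order of a pseudocount of 10 CPM, a minimum of 100 UMIs, cells thinned to 1000 UMIs and only genes at least as high in the type as in all other barcodes. Hypoxia pairs higher were 41, 43, 29 and 30, interferon pairs lower 23, 22, 25 and 22, broad genes higher 12, 10, 4 and 4, and broad genes lower 0, 3, 1 and 0. All pairs higher were 1134, 1214, 1624 and 2184, and all pairs lower 698, 799, 2192 and 2234. The last setting, which was applied only in the library where the gene was higher, left 8 glycolysis pairs higher. The settings compare different numbers of pairs. As a share, hypoxia pairs higher were 20%, 33.6%, 31.9% and 34.1%, beside 1.12%, 2.19%, 4.39% and 3.56% of all pairs. The median of Alas2 was -0.31 with thinned cells and -0.52 under the last setting, and that of Iglc1 0.030 under the last setting; the cause was not tested. Of single genes and types, 1177 values stayed near and 131 moved. Without the C1q macrophage-like type, chosen after seeing the data, 38 genes were broad and higher, 28 of them among the 33 above, and 6 broad and lower. Immune barcodes alone give no value for erythroid-like, endothelial-like and hepatocyte-like cells. No paired analysis was possible because each group has 1 library, and for the same reason no replicate could be left out.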

Other observations

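The list of acute phase and other proteins that hepatocytes secrete held 38 of 167 pairs at least 2-fold higher in S/S and 9 lower, beside 3.91% and 3.49% of all pairs. Its median was above 0 in 9 of 11 types and below 0 in hepatocyte-like (-0.59) and Kupffer-like cells (-0.23). Alb, albumin, was at least 2-fold higher in 7 of 11 types, at 201 CPM in A/A and 452 CPM in S/S neutrophil-like cells, and stood at 11216 and 10249 CPM in hepatocyte-like cells. Saa2, Orm1 and Apoa1, an acute phase protein, a plasma carrier and the main protein of HDL, had medians of 0.97, 0.88 and 0.77. Neutrophil granule and calprotectin genes went the other way, with 9 of 50 pairs at least 2-fold lower and 2 higher, beside 3.49% and 3.91% of all pairs, and medians of -0.79 for Mmp9, -0.65 for S100a9, -0.46 for S100a8 and 0.57 for Mmp8. At baseline the medians of the neutrophil granule list were above 0 in 8 of 8 types, from 1.19 to 2.86. In these lists, too, free RNA and expression in the type cannot be told apart.

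The oxidative stress list under NRF2 had 13 of 234 pairs at least 2-fold higher, near the 3.91% of all pairs, and 1 lower. Slc7a11, the cystine importer, was at least 2-fold higher in 4 of 10 types (median 0.66), and Osgin1, Mgst1 and Taldo1 had medians of 0.59, 0.56 and 0.40. Apoptosis genes held 11 pairs higher and 4 lower of 209, near the 3.91% and 3.49% of all pairs, with medians of 0.49 for Bcl2l1, -0.34 for Casp1 and 0.28 for Pmaip1. Nuclear RNAs held 3 pairs higher and 0 lower of 31. The sex-linked list held 0 higher and 1 lower of 40, both beside 3.91% and 3.49% of all pairs.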
